A study of Mus musculus with 2 samples.

Results

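The 10 genes described here encode secreted and endoplasmic reticulum proteins that take part in processing and crosslinking collagen. They were chosen by symbol, as rows of the deposited table named Lox, Loxl1, Loxl2, Loxl3, Loxl4, Plod1, Plod2, Plod3, Pcolce and Pcolce2, and all 10 were found among the 15719 genes listed with values in the wild-type library. RNA came from superficial zone cells, the flattened chondrocytes at the joint face of articular cartilage, of C57BL/6 mice at postnatal day 5. One group was Prg4KO, mice lacking Prg4, the gene for the joint lubricant lubricin, and the other was wild type (WT), with 1 library each. Both were prepared alike: the femur ends and upper tibia were freed of ligament, tendon and synovium, digested in trypsin and then type I collagenase, and the released cells were seeded on fibronectin. The kind of Prg4 allele, the number of mice behind each library and the length of culture were not stated in the sources used here.

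Collagen is finished outside the cell. Lysyl hydroxylases (Plod genes) first add hydroxyl groups to lysines of the nascent chain in the endoplasmic reticulum, after secretion the C-propeptide is cut off by tolloid proteinases that the procollagen C-proteinase enhancers (Pcolce genes) speed up, and lysyl oxidases (Lox genes) then turn lysines and hydroxylysines into the aldehydes from which crosslinks form. Whether a lysine was hydroxylated decides which kind of crosslink it gives. In cartilage these steps act on type II collagen and on the smaller amounts of other fibrillar collagens, and lysyl oxidases also crosslink elastin.

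The libraries held 21392574 expected counts for Prg4KO and 21619093 for WT. An expected count is the estimated number of reads from a gene, and FPKM, the level used below, scales that count to transcript length and depth. The deposited Prg4KO values lose step with the gene names after the first 20 rows, so each Prg4KO value below was re-paired with its gene by row order and transcript length. Prg4 itself had 6.15 expected counts (FPKM 0.10) in the Prg4KO library and 54559 (FPKM 593) in the WT library. With 1 library per genotype no difference below has a replicate check or a test, and every interval is a 95% exact interval for counting error only. A log2 ratio is that of FPKM + 1, Prg4KO over WT. Over the 7365 paired genes whose FPKM reached at least 5 in either library its median was 0.15, so values relative to that median are given as well.

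Across the 10 genes, the Prg4KO library had less of the main procollagen processing enhancer Pcolce and of the lysyl oxidase Loxl1, and more of Pcolce2. A 1.5-fold limit was passed by 2 of the 10, Pcolce2 on the higher side and Loxl1 on the lower side, while 7.83% of all compared genes passed it in either direction (6.31% higher and 1.52% lower). Pcolce had a log2 ratio of -0.58, just short of the limit of 0.585 in size. Taken relative to the all-gene median, 2 members passed, Loxl1 and Pcolce, both on the lower side, where 3.37% of all compared genes passed, and Pcolce2 at 0.55 did not join the 2.47% on the higher side. When the trend of the ratios with transcript length and GC content was removed, neither Loxl1 (-0.38) nor Pcolce2 (0.55) passed, and Loxl4 (0.67) did. The all-gene median was then 0.14. Relative to it Loxl4 did not pass, and Pcolce, at -0.54 before that median was subtracted, passed on the lower side. The share of all compared genes past the limit was not counted in that setting. No member reached 2-fold, which 0.57% of all compared genes did (0.462% higher and 0.109% lower). By sign, 7 members were lower and 3 higher in the Prg4KO library, and 7 also lay below the all-gene median, whereas 30.9% of all compared genes had a ratio below 0. The median of the 10 was -0.18, or -0.33 relative to all genes. All 10 passed the FPKM limit of 5 in both libraries.

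**Figure D1:**
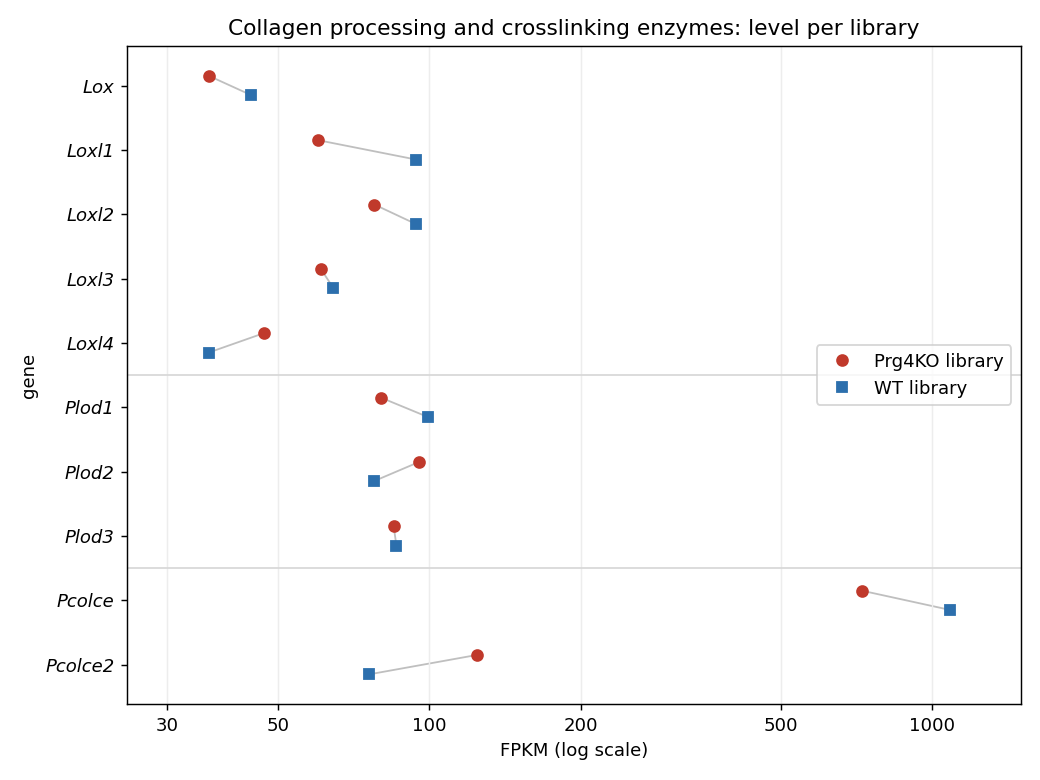
FPKM (log axis) of the 10 genes, with the Prg4KO library as circles above the WT library as squares. Pcolce stands far above the rest in both libraries (725 in Prg4KO and 1087 in WT), and the other 9 lie between 36.4 and 124.

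The procollagen C-proteinase enhancers were the pair whose members moved furthest apart. Pcolce (chromosome 5, 137605103 to 137613784 in GRCm38, minus strand) encodes the secreted glycoprotein that binds the C-propeptide and raises the activity of the tolloid proteinase Bmp1. Pcolce2 (chromosome 9, 95637601 to 95698096, plus strand) encodes its paralog with the same activity. Because the 2 genes lay on opposite sides, the 250 bases before the RefSeq start of each are shown (GRCm38.p6), 5′ to 3′ on the gene's own strand, chr5:137611405-137611654 for Pcolce and chr9:95637378-95637627 for Pcolce2. The positions of the genes are GENCODE's, whose span for Pcolce also covers transcripts that begin further upstream, so the Pcolce window lies inside it. Capitals mark the GC box GGGCGG on either strand.
Pcolce: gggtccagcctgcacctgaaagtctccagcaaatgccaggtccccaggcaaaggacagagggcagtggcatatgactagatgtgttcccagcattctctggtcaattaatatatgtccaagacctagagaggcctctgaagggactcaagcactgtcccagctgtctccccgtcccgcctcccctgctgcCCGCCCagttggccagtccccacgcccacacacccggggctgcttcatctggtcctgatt
Pcolce2: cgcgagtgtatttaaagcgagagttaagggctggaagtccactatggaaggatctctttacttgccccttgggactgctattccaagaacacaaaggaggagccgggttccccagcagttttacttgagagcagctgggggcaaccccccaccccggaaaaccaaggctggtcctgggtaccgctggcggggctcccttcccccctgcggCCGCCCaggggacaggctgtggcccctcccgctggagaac
Each window held 1 GC box, starting 60 bases before the start in Pcolce and 40 bases before it in Pcolce2, and 32.9% of 27025 promoter windows held one. Neither held TATAAA (in 3504 windows), CCAAT (34.5%), ACGTG, the core bound by hypoxia factors (16.6%), or the AP-1 site TGANTCA (6.9%), each read on both strands with overlaps allowed. The Pcolce window was 58.8% G and C with 5 CG pairs, and the Pcolce2 window 61.2% with 10, against medians of 52.0% and 6 over all windows. Windows were matched for 5 of the 10 genes, the others being Loxl4, Plod1 and Plod3.

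Pcolce had an FPKM of 725 in the Prg4KO library and 1087 in the WT library, from 23713 counts (23410 to 24020) in Prg4KO and 35871 counts (35500 to 36240) in WT. It was the lower of the pair in relative terms: its counts per library total were 0.668 times those of WT (0.657 to 0.679), and only 1.52% of the compared genes had a lower log2 ratio. By FPKM it ranked 112 among Prg4KO values and 55 among WT genes, so it stayed among the most abundant transcripts of these cells.

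Pcolce2 had an FPKM of 124 in the Prg4KO library and 75.9 in the WT library, from 4942 counts (4805 to 5082) in Prg4KO and 3051 counts (2944 to 3161) in WT. The counting intervals did not overlap, and the count ratio was 1.64 (1.56 to 1.71). Its log2 ratio was 0.70, higher than in 97.1% of the compared genes, or 0.55 relative to the all-gene median, which is short of the limit. Within a library, where scaling between libraries plays no part, Pcolce stood 5.84 times (5.67 to 6.03) above Pcolce2 in Prg4KO and 14.3 times (13.8 to 14.9) in WT. Pcolce2 thus made up 14.6% of the summed FPKM of both enhancers in the Prg4KO library and 6.53% in the WT library. Their sum was 849 FPKM in Prg4KO and 1163 in WT.

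**Figure D2:**
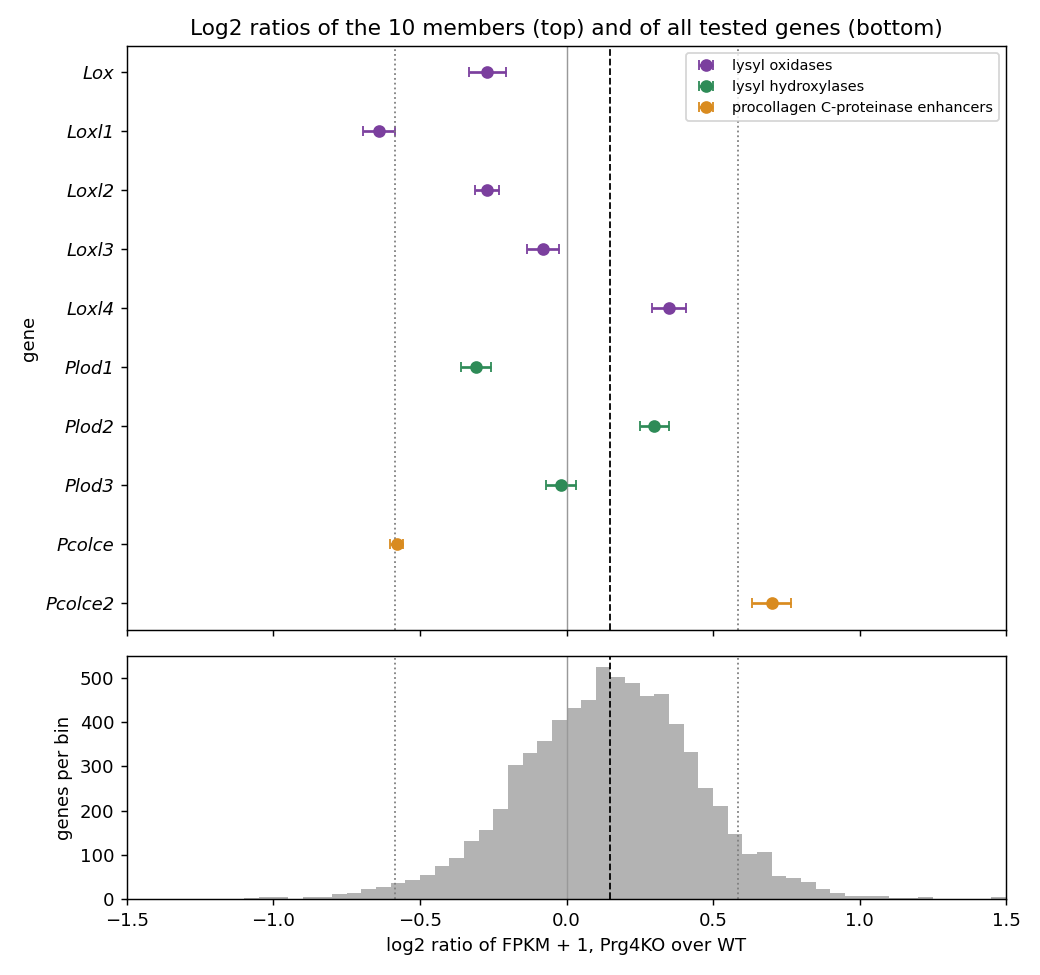
Top, log2 ratio of FPKM + 1 (Prg4KO over WT) of each gene with the 95% counting interval, coloured by family; bottom, number of the 7365 compared genes per bin of 0.05, with ratios beyond 1.5 in the outermost bins. Dashed lines mark the all-gene median of 0.15 and dotted lines the 1.5-fold limits, which Loxl1 and Pcolce2 passed.

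Among the lysyl oxidases, the copper-dependent amine oxidases that start crosslinking, 4 of the 5 lay below the all-gene median and 1 above it. Loxl1 (chromosome 9, 58287738 to 58313186), the family member tied to elastic fibre upkeep in mice, had an FPKM of 60.1 in the Prg4KO library and 94.0 in the WT library, from 4317 counts in Prg4KO and 6813 in WT. It was the member furthest on the lower side, with a count ratio of 0.640 (0.616 to 0.665) and a log2 ratio of -0.64, lower than in all but 1.05% of the compared genes. Loxl4 (chromosome 19, 42593982 to 42612813), a member with scavenger receptor cysteine-rich domains, went the other way with 46.8 in Prg4KO and 36.4 in WT, from 5506 counts in Prg4KO and 4320 in WT. Its count ratio was 1.29 (1.24 to 1.34) and its log2 ratio 0.35, or 0.20 relative to all genes, inside the limit.

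Lox itself (chromosome 18, 52516067 to 52529867), the founding enzyme of the family, had an FPKM of 36.4 in the Prg4KO library and 44.2 in the WT library, with a count ratio of 0.822 (0.787 to 0.859). Loxl2 (chromosome 14, 69609068 to 69695834), which also crosslinks basement membrane collagen, had 77.7 in Prg4KO and 93.8 in WT, with a ratio of 0.830 (0.806 to 0.854). Both had a log2 ratio of -0.27, inside the limit, with 8.35% of the compared genes below Lox and 8.57% below Loxl2. Loxl2 was at -0.03 once the length and GC trend was taken out, where the all-gene median was 0.14. Loxl3 (chromosome 6, 83034173 to 83052562), which mice need for palate and spine formation, differed least, with 60.8 in Prg4KO and 64.4 in WT. Its log2 ratio of -0.08 turned to 0.06 when the trend with transcript length and GC content was removed, still below the all-gene median.

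The make-up of the lysyl oxidase family therefore differed between the libraries. Loxl1 supplied 21.3% of the summed lysyl oxidase FPKM in Prg4KO and 28.2% in WT, and Loxl4 supplied 16.6% in Prg4KO and 10.9% in WT. Loxl3 had 21.6% in Prg4KO and 19.4% in WT, while Lox (12.9% in Prg4KO and 13.3% in WT) and Loxl2 (27.6% in Prg4KO and 28.2% in WT) differed by less than 1 percentage point. Loxl1 stood 1.28 times (1.23 to 1.34) above Loxl4 in the Prg4KO library and 2.58 times (2.49 to 2.69) in the WT library. The summed FPKM of the 5 genes was 282 in Prg4KO and 333 in WT.

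**Figure D3:**
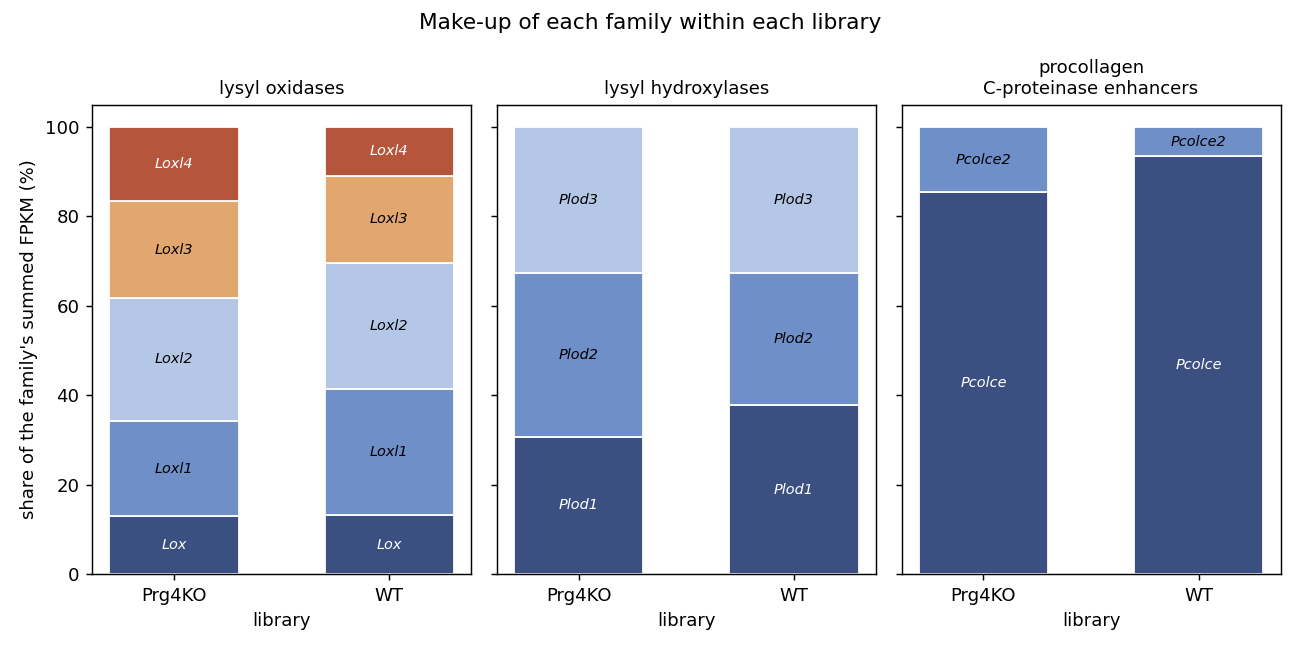
Share of each gene in the summed FPKM of its family (bars add to 100%), with Prg4KO left of WT in each panel. Loxl4, Plod2 and Pcolce2 take larger shares in the Prg4KO library (16.6%, 36.6% and 14.6%) than in the WT library (10.9%, 29.5% and 6.53%).

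The lysyl hydroxylases kept their summed level, 260 FPKM in the Prg4KO library and 263 in the WT library, while 2 of the 3 lay on opposite sides. Plod1 (chromosome 4, 147909753 to 147936767), which hydroxylates lysines of the triple helix and is mutated in kyphoscoliotic Ehlers-Danlos syndrome in humans, had 80.0 in Prg4KO and 99.2 in WT. That was a count ratio of 0.808 (0.780 to 0.837) and a log2 ratio of -0.31. Plod2 (chromosome 9, 92542223 to 92608428), which hydroxylates lysines of the telopeptides and whose loss causes Bruck syndrome in humans, had 95.3 in Prg4KO and 77.4 in WT. Its count ratio was 1.23 (1.19 to 1.27) and its log2 ratio 0.30, which 69.2% of the compared genes fell short of, so it lay only 0.15 above the all-gene median. Plod3 (chromosome 5, 136987019 to 136996648), which also glycosylates hydroxylysine, had 84.8 in Prg4KO and 86.0 in WT, with a count ratio of 0.988 (0.954 to 1.02) that includes 1. Its log2 ratio of -0.02 became 0.17 with the length and GC trend removed.

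Plod1 and Plod2 stood in opposite order in the deposited values of the libraries. Plod1 was at 0.839 times Plod2 (0.811 to 0.869) in the Prg4KO library and at 1.28 times (1.24 to 1.32) in the WT library. With the length and GC trend taken out, Plod1 was at -0.15 and Plod2 at 0.18, which puts Plod1 at 1.02 times Plod2 in Prg4KO, so the reversed order was not kept. By FPKM with the trend left in, Plod2 held 36.6% of the lysyl hydroxylase sum in Prg4KO and 29.5% in WT. On the same footing Plod1 held 30.8% in Prg4KO and 37.8% in WT.

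Plod2 is also made in forms with and without an alternative exon, and the deposited table lists 2 transcripts for it. In the annotation they differ by this exon of 63 bases (21 codons), exon 14 of 20 in the longer form, at chr9:92601985-92602047 in GRCm38 on the plus strand, and also slightly at both ends. It is shown from the GENCODE transcript in capitals, with 20 bases of the flanking exons in lower case.
Plod2 alternative exon: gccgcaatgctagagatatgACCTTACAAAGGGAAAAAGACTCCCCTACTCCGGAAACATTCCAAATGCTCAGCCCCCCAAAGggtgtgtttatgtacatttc
Count divided by FPKM gives the mean transcript length of a gene, weighted by the abundance of its forms. For Plod2 this was 3684.67 bases in the Prg4KO library and 3698.63 in the WT library, a difference of -13.96 bases (-0.381%) that is more than rounding of the deposited values allows (0.0117% either way). Lox, with 3 listed transcripts, differed by -15.5 bases (-0.336%), and Loxl4, with 2, by -0.0123%, within rounding. Such shifts were common: of 1023 genes with several transcripts and an FPKM of at least 20 in both libraries, 31.5% shifted by as much as Plod2 and 34.6% by as much as Lox. The share of the exon-holding form was not derived, because the transcript lengths behind the deposited values were not stated in the sources used here.

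In order of FPKM, the WT library ran from Pcolce (1087) through Plod1, Loxl1, Loxl2, Plod3, Plod2, Pcolce2, Loxl3 and Lox to Loxl4 (36.4). Neighbours in this order differed beyond counting error except Loxl1 and Loxl2 (ratio 1.00, 0.972 to 1.03) and Plod2 and Pcolce2 (1.02, 0.976 to 1.07). The Prg4KO library ran from Pcolce (725) through Pcolce2, Plod2, Plod3, Plod1, Loxl2, Loxl3, Loxl1 and Loxl4 to Lox (36.4). There the pairs Plod1 and Loxl2 (1.03, 0.996 to 1.07) and Loxl3 and Loxl1 (1.01, 0.972 to 1.05) did not differ. Pcolce2 thus held place 2 in Prg4KO and place 7 in WT, and Loxl1 place 8 in Prg4KO and place 3 in WT. The Prg4KO order is by FPKM with the length and GC trend left in. It was not derived with that trend removed, where Plod1 stood at 1.02 times Plod2.

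The collagens these proteins act on did not share one direction. Of 9 substrate genes, 7 lay below the all-gene median, 4 passed the lower 1.5-fold limit and 0 the upper one, with a list median of -0.38 (-0.53 relative to all genes). Col1a1, a type I collagen chain, stood at 5593 FPKM in Prg4KO and 11470 in WT, and Col5a1, which helps start type I fibrils, had 148 in Prg4KO and 260 in WT. The others past the limit were elastin (Eln), with 74.4 in Prg4KO and 123 in WT, and Col1a2, with 3869 in Prg4KO and 5838 in WT. Highest was Col11a1, a chain of cartilage fibrils, with a log2 ratio of 0.26, and Col2a1, the main cartilage collagen, had 15702 in Prg4KO and 14594 in WT.

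Set against Col1a1, the substrate with the lowest ratio, Pcolce and Loxl1 were higher in Prg4KO. Col1a2, the other type I chain, had a count ratio of 0.664, close to those of Pcolce (0.668) and Loxl1 (0.640). Neither was therefore clearly higher when set against Col1a2. Pcolce stood at 0.130 times Col1a1 (0.128 to 0.131) in the Prg4KO library and 0.0948 times (0.0938 to 0.0958) in the WT library, and Loxl1 at 0.0107 times (0.0104 to 0.0111) in Prg4KO and 0.00819 times (0.00800 to 0.00839) in WT. Loxl1 per elastin was 0.807 (0.776 to 0.840) in Prg4KO and 0.765 (0.742 to 0.789) in WT, with counting intervals that overlap. Prg4KO over WT was 1.055 for this value. No counting interval was computed for that change, and the overlap does not show that it is absent. Pcolce2 per Col2a1 was 0.00790 (0.00768 to 0.00813) in Prg4KO and 0.00520 (0.00502 to 0.00539) in WT. With the length and GC trend taken out these Prg4KO values were 0.104 for Pcolce and 0.0101 for Loxl1 per Col1a1, 0.812 for Loxl1 per elastin and 0.00544 for Pcolce2 per Col2a1.

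**Figure D4:**
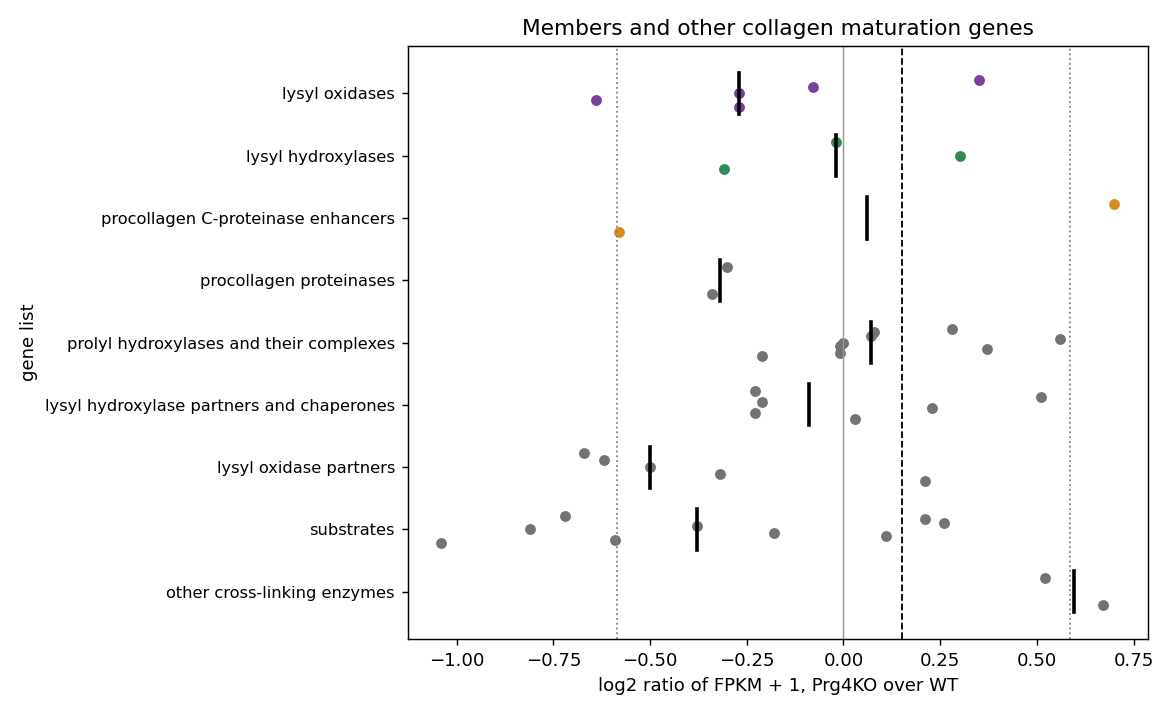
Log2 ratio of FPKM + 1 (Prg4KO over WT) of each gene that reached an FPKM of 5 in either library, by list; black bars mark list medians, the dashed line the all-gene median of 0.15 and dotted lines the 1.5-fold limits. Col1a1 lies furthest to the lower side and Pcolce2 and Tgm2 furthest to the higher side.

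Other genes of collagen maturation were mostly inside the 1.5-fold limits, which 7.83% of all compared genes passed in either direction. Of 6 procollagen proteinases, 2 had an FPKM of at least 5, both below the all-gene median: Bmp1, the C-proteinase that Pcolce enhances, with 61.8 in Prg4KO and 78.4 in WT (log2 ratio -0.34), and the N-proteinase Adamts2, with 10.5 in Prg4KO and 13.1 in WT (-0.30). Bmp1 per Pcolce was 0.0852 (0.0827 to 0.0879) in Prg4KO and 0.0721 (0.0702 to 0.0740) in WT. Tll1, Adamts3 and Adamts14 were at most 3.02 FPKM in either library, and Tll2 had 0.03 in WT and could not be paired.

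The prolyl hydroxylases and their complexes, which stabilise the triple helix, had 6 of 9 members below the median of all genes and 3 above it. Their list median was 0.07 (-0.08 relative to all genes), and 0 passed the limits, against 7.83% of all compared genes. They ran from P4ha1, a catalytic subunit of prolyl 4-hydroxylase, at -0.21 to P3h2, a prolyl 3-hydroxylase, at 0.56, with 24.5 in Prg4KO and 16.3 in WT. The FPKM ratio of P3h2 without the added 1 was 1.501, so its place inside the limit rests on the added 1. The lysyl hydroxylase partners and chaperones had 4 of 6 below and 0 past the limits, with a median of -0.09 (-0.24 relative to all genes). Fkbp10, the peptidyl-prolyl isomerase that works with the Plod2 product, had 338 in Prg4KO and 396 in WT (log2 ratio -0.23), the collagen chaperone Serpinh1 had 1411 in Prg4KO and 1657 in WT (-0.23), and the hydroxylysine galactosyltransferase Colgalt2 was highest at 0.51.

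Genes whose products bring lysyl oxidases to the matrix or load them lay lower. Of 6, 5 had an FPKM of at least 5, with a median of -0.50 (-0.65 relative to all genes). Of these 5, 4 were below the all-gene median and 2 passed the lower limit, which 1.52% of all compared genes passed. Those 2 were fibromodulin (Fmod), a collagen-binding proteoglycan that also binds Lox, with 2285 in Prg4KO and 3628 in WT, and periostin (Postn), which aids Lox activation, with 274 in Prg4KO and 420 in WT. Efemp2, the fibulin needed to place Lox on elastin, was highest at a log2 ratio of 0.21, with 112 in Prg4KO and 97.0 in WT. Atp7a, the copper pump that supplies lysyl oxidases, had 2.08 in Prg4KO and 2.38 in WT. Transglutaminase 2 (Tgm2), which makes a different kind of protein crosslink, had 59.1 in Prg4KO and 36.7 in WT. Its log2 ratio of 0.67 passed the upper limit, as 6.31% of all compared genes did, but 0.52 relative to all genes was short of it. The fellow transglutaminase F13a1 had 8.42 in Prg4KO and 5.55 in WT (0.52). Its FPKM ratio without the added 1 was 1.517, so its place inside the limit rests on the added 1.

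Markers of tissues that the cells could include, some of which stand in the lists above, differed alongside these genes, and their part in the results was not tested. Fibrous connective tissue markers had 6 of 7 below the all-gene median and a summed FPKM of 12286 in Prg4KO and 21201 in WT. Of these, Col1a1, Col1a2 and Col3a1 are also substrates above, and the other 4 summed to 1979 in Prg4KO and 2938 in WT. Those 4 did not share one direction. Mfap4 had 423 in Prg4KO and 848 in WT, and Col6a2 had 937 in Prg4KO and 1536 in WT. Dcn, with 396 in Prg4KO and 386 in WT, and Lum, with 222 in Prg4KO and 168 in WT, were higher in Prg4KO. Superficial zone markers had 8 of 9 below (481 in Prg4KO and 1288 in WT), or 7 of 8 without the deleted Prg4 (481 in Prg4KO and 696 in WT). Tendon and ligament markers had 4 of the 4 with an FPKM of at least 5 below (3151 in Prg4KO and 4701 in WT), or 867 in Prg4KO and 1073 in WT without Fmod. Most of that remainder was Egr1, with 535 in Prg4KO and 728 in WT, and Tnmd, with 314 in Prg4KO and 321 in WT. The count ratio of Tnmd was 0.980 (0.951 to 1.01), an interval that includes 1. Chondrocyte markers had 6 of 8 above (20309 in Prg4KO and 17986 in WT). Without Col2a1, also a substrate above, 6 of 7 were above (4607 in Prg4KO and 3392 in WT). The 2 below the median were Col2a1 and Acan, which had 436 in Prg4KO and 527 in WT. Hypertrophic markers had 6 of 7 above (949 in Prg4KO and 605 in WT). The osteoclast markers had 2 of 3 above (233 in Prg4KO and 165 in WT, of which Ctsk had 143 in Prg4KO and 140 in WT). Of these, Mmp9 had 56.9 in Prg4KO and 14.1 in WT, Acp5 had 32.3 in Prg4KO and 10.2 in WT, Ocstamp had 0.89 in Prg4KO and 0.57 in WT, and the receptor gene Calcr had 0.03 in Prg4KO and 0.05 in WT. Of the markers with an FPKM of at least 5, those of macrophages and osteoblasts were above the median in 3 of 3 and those of synovial fibroblasts and endothelium below it in 3 of 3. In bulk RNA, fewer cells of a type and less RNA per cell cannot be told apart.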

How the data were processed

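The authors deposited 1 table with expected counts and FPKM per gene for both libraries, per the file headers, with genes at 0 not listed. HISAT2, Bowtie2, RSEM and mm10 stand in the submitters' processing notes without versions or roles, and strand use and read length were not given in the sources used here. Reads of Loxl3 and Htra2, and of Plod3 and Znhit1, whose exons overlap on opposite strands, may therefore have been shared, as may those of Pcolce and Fbxo24 on the same strand. Lox, Loxl2, Plod2, Plod3 and Pcolce also overlap genes not annotated as protein-coding. For Plod2 this is Gm38391 on the opposite strand, over 346 bases.

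The table held 15719 WT rows and 15973 Prg4KO rows, 254 beside no gene. Log2 FPKM correlated across genes at 0.96 over the first 20 rows and at 0.084 later. Both libraries were treated as ordered subsets of 1 gene list, and a pair hidden Markov model over order and count divided by FPKM gave the probability of each pair. Pairs at 0.95 or more were used (14896 genes, 94.8%, and 6838 of 6840 with a WT FPKM of at least 5). All 10 members were paired at 0.999998 or more, and with the same row by a simpler model. The 7 with 1 transcript differed in effective length by at most 0.00694% between libraries. Neighbouring pairs kept the same row shift on both sides for 7 members, and not on 1 side of Pcolce, Loxl4 and Plod3. The model was also run on rows simulated from the WT values with most genes left unchanged. That setting differs from the real libraries, so the run is not used as support here.

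Log2 ratios used a pseudocount of 1 and genes that reached an FPKM of 5 in either library; 1.5-fold and 2-fold limits stand in place of a test. Count ratios per library total have exact conditional binomial intervals, and counts exact Poisson ones. TMM and size factors came from edgeR 4.0.16 on rounded expected counts, for scaling only; other steps used Python 3.11.15, numpy 2.4.6, pandas 2.3.3 and scipy 1.17.1. GC content came from GENCODE transcripts (99.4% of genes). All members are named, and of each pathway list those past 1.5-fold and the highest and lowest; the others were chosen for their role, with their values known. Members and lists were chosen with earlier results of these data known.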

Additional observations from a re-analysis of the deposited data

How the results depend on the processing

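Each member kept its sign under 9 alternatives (pseudocount of 0.1, 5 rescalings, removal of the trend with transcript length and GC content, a pair probability of 0.99 and a simpler pairing model), except Loxl3 and Plod3 with the trend removed. The 5 rescalings moved the all-gene median to between -0.02 and 0.02, and under each of them, as relative to the all-gene median, 2 members passed the 1.5-fold limit, Loxl1 and Pcolce, both lower, while Pcolce2 did not pass (lowest 0.52). Relative to that median 5.84% of all compared genes passed (2.47% higher and 3.37% lower). With the length and GC trend removed, which held 26.9% of the variance of the log2 ratios, 1 member passed, Loxl4 at 0.67. Loxl1 was at -0.38, Pcolce at -0.54 and Pcolce2 at 0.55. The all-gene median was 0.14 in that setting, and relative to it Pcolce passed on the lower side and Loxl4 did not. The share of all compared genes past the limit was not counted there. The medians relative to all genes then became -0.13 for the members, -0.20 for the proteinases, -0.009 for the prolyl hydroxylases, -0.15 for the lysyl hydroxylase partners, -0.40 for the lysyl oxidase partners and -0.37 for the substrates; the cause was not tested. Other filters on FPKM left the count of members at 2, and the share of all genes past the limit was not counted for them. A 1.3-fold limit, added after seeing the data, gave 3 of 10, where 25.3% of all compared genes passed. Throughout, 0 members passed 2-fold. By count per deposited length 8 of 10 places in the WT order were as by FPKM, and Loxl1 and Loxl2 changed places. No paired analysis was possible because each genotype has 1 library. At these depths the counting interval of the ratio excluded 1 for each member except Plod3, and the spread between cultures is unknown.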
